A study of Caenorhabditis elegans with 2 samples.

Results

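The binding of Y79H2A.3, a zinc finger protein per the RefSeq annotation, was examined at 10 genes that encode enzymes of glycolysis in Caenorhabditis elegans, namely gpi-1, pfk-1.1, aldo-1, aldo-2, tpi-1, gpd-2, gpd-3, pgk-1, enol-1 and pyk-1. They are 10 of 19973 nuclear protein-coding genes. The genes were chosen by name with the peak values of these libraries already known, so their peaks are described here and not tested. Each peak was read from 2000 bp upstream of the gene start through the gene end, and a peak counted when it overlapped that window by at least 1 bp.

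The chromatin came from whole young adults of strain RW12273 at 63 hours, grown from larvae that had been starved at hatching to bring them to one stage. The strain carries st12273[Y79H2A.3::TY1::EGFP::3xFLAG] III, a CRISPR insertion that adds EGFP and epitope tags to the protein, and tagged protein was precipitated from sonicated chromatin with an antibody against GFP. The study has 1 group, 2 biological replicates and no second condition. No input or control precipitation was analysed here, and every animal carried the same insertion. Because whole animals were used, binding in few cells and weak binding in many cells cannot be told apart.

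Glycolysis splits glucose into pyruvate in the cytosol and yields ATP and NADH. Its first steps spend ATP to make a sugar with phosphate at both ends, aldolase cuts that sugar into a pair of triose phosphates, and the later steps recover ATP at phosphoglycerate kinase and pyruvate kinase. Most of its enzymes also work in reverse during gluconeogenesis, and several are present as isozymes in the worm, as for aldolase, glyceraldehyde 3-phosphate dehydrogenase and pyruvate kinase.

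The sequences under a pair of the peaks are printed first, because they hold the same 6 letters although one peak lies beside a gene start and the other beyond a gene end. The latter peak also lies upstream of the next gene, T21B10.3. The letters are CGCGCC, or GGCGCG on the opposite strand, and they are in capitals below. The aldo-2 stretch is 30 bases on the gene's own strand, the minus strand, at chrIII:5876446-5876475 of WBcel235, and the enol-1 stretch is the 101 bases centred on the summit, on the plus strand, at chrII:8933843-8933943. Both were read from the RefSeq copy of that assembly.
aldo-2: ttcagttctctgCGCGCCaacaatatttgg
enol-1: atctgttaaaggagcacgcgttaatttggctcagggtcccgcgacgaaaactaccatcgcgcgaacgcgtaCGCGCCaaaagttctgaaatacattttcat

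The peaks of 5 glycolysis genes passed the authors' reproducibility threshold. In the conservative list, which compares the replicates and in which every peak has an irreproducible discovery rate (IDR) of 0.01 or less, gpi-1, aldo-2, pgk-1, enol-1 and pyk-1 had a peak, which is 5 of 10 genes, against 6.26% of all coding genes. The remaining 5, pfk-1.1, aldo-1, tpi-1, gpd-2 and gpd-3, had none. With a summit required between 1000 bp upstream and 200 bp downstream of a transcript start, the count was 3 of 10 (gpi-1, aldo-2 and pgk-1), against 2.88% of coding genes. With a summit required within 200 bp of the gene end, a window set after these values had been seen, it was 2 of 10 (enol-1 and pyk-1), against 2.26% of coding genes. The genes with a peak in their window were thus marked at different places: upstream or at the start for 3, and at the 3′ end for 2. The enol-1 peak, however, also lies in the start window of the next gene, T21B10.3.

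The other thresholded lists named almost the same genes. The pooled reads had peaks at the same 5 genes, where 5.7% of coding genes had one. Replicate 2 alone also had them at those 5, where 2.57% of coding genes had one. Replicate 1 alone had them at 4, all but pyk-1, where 2.98% of coding genes had one. The ranked lists, which also keep peaks that fail the threshold, hold a peak at most genes of the genome and say little by presence alone. In them 9 of 10 glycolysis genes had a peak in the comparison of the replicates (88.4% of coding genes), 8 in replicate 1 (79.2%) and all 10 in replicate 2 (82.2%).

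The signal value that the authors give each peak is its height on a scale they do not state, so a height is read here by its rank. Over the 10 genes, the median of the tallest peak in each replicate's own ranked list was 40.5 in replicate 1 and 39.4 in replicate 2. Over all coding genes, with 0 for a gene without a peak, it was 17.8 in replicate 1 (middle 50% from 11.1 to 23.8) and 21.3 in replicate 2 (14.5 to 27.5). The 5 genes with a conservative peak were the 5 tallest in both of these lists, and tpi-1, aldo-1 and pfk-1.1 were the 3 lowest in both. That order is not independent of the conservative list, which compares the same replicates.

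**Figure D1:**
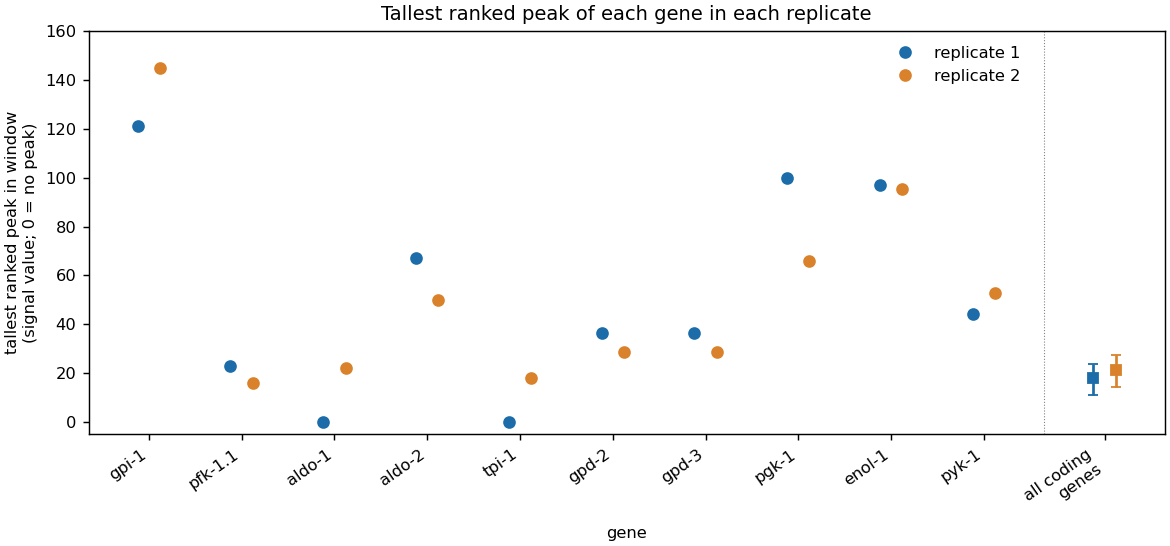
Signal value of the tallest ranked peak in each glycolysis gene's window in the ranked list of replicate 1 (blue) and of replicate 2 (orange), with 0 for no peak; the squares and bars at the right are the median and middle 50% of all coding genes. gpi-1 stands highest at 121 and 145, while aldo-1 and tpi-1 have no peak in replicate 1's own ranked list.

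The genes were spread unevenly over the chromosomes. All 3 members on chromosome I (gpi-1, pgk-1 and pyk-1) had a conservative peak, against 10.7% of the coding genes there. On chromosome II, enol-1 had a peak and tpi-1 had none, against 5.77% of coding genes, and on chromosome III, aldo-2 had a peak and aldo-1 had none, against 9.85%. None of the 3 members on the X chromosome (pfk-1.1, gpd-2 and gpd-3) had one, against 1.87% of the coding genes there, the lowest share of the 6 chromosomes.

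gpi-1 encodes phosphoglucose isomerase, which converts the phosphate of glucose into that of fructose. It had the tallest and most sharply placed peak of the group. The gene (WBGene00013597) runs along the plus strand at chrI:13576148-13581611, and its conservative peak at chrI:13576066-13576223 was 158 bp wide, against a median of 296 bp over the list. Its signal value was 121 in replicate 1 and 145 in replicate 2, and 259 in the conservative list, where it ranked at 8 of 1021 and above 99.2% of peaks. The summit fell 3 bp upstream of the gene start in the conservative list, and 9 bp and 1 bp downstream of it in replicates 1 and 2, so that the replicates' summits were 8 bp apart. The −log10 of the global IDR, a value that rises with reproducibility, was 5.00 in the comparison and in each replicate, the upper end of the scale. Here and below, the values of a single replicate come from that library alone, so they do not measure agreement between the replicates. The gene on the upstream side, nyn-2, lies on the same strand and ends 340 bp before the summit, so gpi-1 was the only gene with a start within 2000 bp of it.

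The aldolases cut fructose bisphosphate into a pair of triose phosphates, and the worm's pair of aldolase genes differed in their peaks. aldo-2 (WBGene00017166, minus strand, chrIII:5874673-5876625) had a conservative peak at chrIII:5876306-5876601. Its signal value was 67.2 in replicate 1 and 50 in replicate 2, and 105 in the conservative list, above 74.9% of its peaks. The summit lay in the 5′ UTR, 171 bp past the outermost annotated start and 16 bp past the second one, and the −log10 global IDR was 2.97 in replicate 1 and 2.06 in replicate 2, just inside the threshold of 2. mig-21, on the same strand upstream, ends 493 bp from the summit.

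aldo-1 (WBGene00011474, minus strand, chrIII:13563346-13564937) had no peak in its window in replicate 1's own ranked list. The comparison of the replicates lists 2 low peaks inside the gene, with signal values of 24.0 and 14.4, and gives replicate 1 values of 12.8 and 11.0 for them. In replicate 2 its tallest ranked peak was 22.2, beside the gene end, and the tallest in its start window was 16.3 at 988 bp upstream. The peaks of aldo-1 in replicate 2 were lower than the 50 of aldo-2 in the same library, and no thresholded list holds any of them. In both gene bodies 100% of the 31-base words occur once in the genome.

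pgk-1 encodes phosphoglycerate kinase, the first enzyme of the pathway that returns ATP. The gene (WBGene00020185, plus strand, chrI:3867541-3869109) had a conservative peak at chrI:3866480-3866775 with a signal value of 99.7 in replicate 1, 65.9 in replicate 2 and 167 in the conservative list, above 92.8% of its peaks. The summit was 913 bp upstream of pgk-1 but only 690 bp upstream of hcp-4, which encodes a centromere protein and is transcribed the other way. The peak thus lies in the interval between a divergent pair of genes, nearer to hcp-4. A further listed peak at 713 bp upstream, with a signal value of 32.0, overlaps the first and carries the same replicate values, 99.7 and 65.9. It was not in the pooled list, and 42.5% of its 31-base words are unique, against 92.1% for the first.

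enol-1 encodes enolase, which makes phosphoenolpyruvate. The gene (WBGene00011884, plus strand, chrII:8930997-8933799) had its conservative peak not at its start but beyond its 3′ end, at chrII:8933745-8934040. The signal value was 96.9 in replicate 1, 95.2 in replicate 2 and 186 in the conservative list, above 95.1% of peaks, and only the edge of the peak overlaps the gene. The summit was 94 bp past the gene end and 489 bp upstream of the next gene on the same strand, T21B10.3, so the same peak is also an upstream peak of T21B10.3. At the outermost annotated start of enol-1 itself the ranked peaks were lower, 19.6 in replicate 1 at 55 bp upstream and 33.9 in replicate 2 at 52 bp upstream. In the comparison of the replicates that start peak had a signal value of 47.0 and a −log10 global IDR of 0.95, outside the threshold. The other annotated starts of enol-1, which has 3, were not read in this way. A peak inside the gene, 895 bp past the outermost start, had 47.7 and 1.05 in that comparison, also outside the threshold.

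pyk-1 encodes pyruvate kinase, the last step of the pathway, and is the longest gene of the 10, with 9057 bp and 22 ranked peaks in the comparison of the replicates. The gene (WBGene00009126, plus strand, chrI:9168432-9177488) had 1 conservative peak, at chrI:9177325-9177620, with a signal value of 44.4 in replicate 1, 52.7 in replicate 2 and 94.8 in the conservative list, above 65.3% of peaks. The summit lay in the 3′ UTR, 15 bp before the gene end and 191 bp past the end of F25H5.8, a gene transcribed toward pyk-1 from the other side. Its −log10 global IDR in the comparison of the replicates, 3.20, was the lowest of the 5 genes. In the single libraries it was 1.98 in replicate 1, just outside the threshold, and 2.35 in replicate 2. Only the outermost of the 5 annotated starts of pyk-1 was read in each replicate, from 1000 bp upstream to 200 bp downstream. The tallest ranked peaks there were 29.8 in replicate 1 and 16.4 in replicate 2. Further upstream, replicate 2 had a peak of 34.9 at 1384 bp, with a −log10 global IDR of 1.96, and the pooled reads had peaks of 56.6 at 1562 bp and 41.8 at 1357 bp, both at 1.97, all just outside the threshold.

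**Figure D2:**
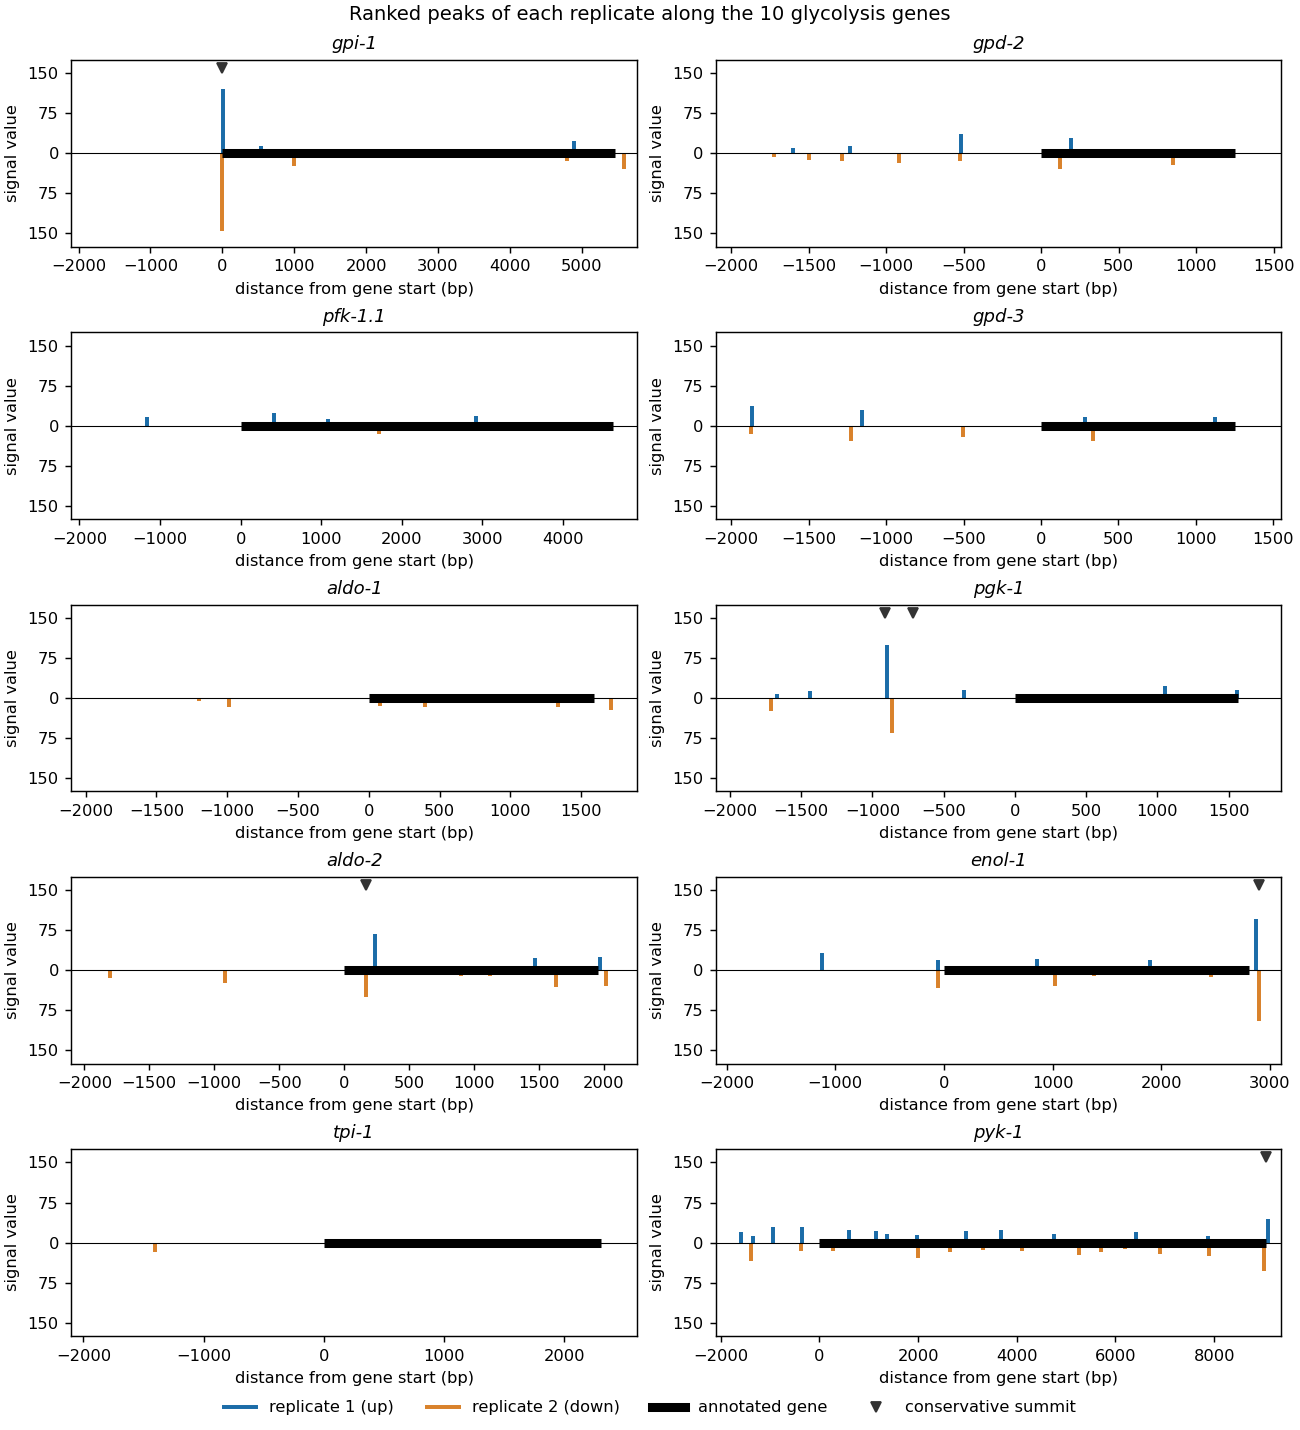
Ranked peaks along each glycolysis gene, with the distance from the gene start in bp on the horizontal axis and the signal value of each summit drawn upward for replicate 1 (blue) and downward for replicate 2 (orange); the black bar is the gene and triangles mark conservative summits. The tall pair of bars lies at the start of gpi-1. For replicates 1 and 2 it lies 897 and 861 bp upstream of pgk-1, and 71 and 94 bp past the end of enol-1.

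The 5 genes without a conservative peak were not alike. gpd-2 and gpd-3 encode glyceraldehyde 3-phosphate dehydrogenase, which makes NADH, and lie one behind the other on the minus strand of the X chromosome, at chrX:3113443-3114689 (WBGene00001684) and chrX:3112091-3113341 (WBGene00001685). Because the window of gpd-3 covers gpd-2, both genes are read from the same tallest peaks, 36.5 in replicate 1 and 28.8 in replicate 2. The first of these lay 521 bp upstream of gpd-2 and the second 123 bp past its start, so the replicates' tallest peaks were at different positions. Inside gpd-3 itself there was a peak of 17 in replicate 1, at 284 bp past its start. Replicate 2 had one of 28.8 there, at 335 bp. In the comparison of the replicates, the tallest peak had a signal value of 59.9, above that of 89.9% of coding genes, and a −log10 global IDR of 0.24. The peak with the best reproducibility had a signal value of 52.9 and a −log10 global IDR of 1.53, at 223 bp past the start of gpd-2. Part of these gene bodies cannot be read uniquely, since 59.2% of the 31-base words of gpd-2 and 59.3% of those of gpd-3 occur once in the genome.

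pfk-1.1 encodes phosphofructokinase, the committed step of the pathway, and had only low peaks. The gene (WBGene00022199, plus strand, chrX:2940872-2945485) had a tallest peak of 23.0 in replicate 1 and 15.9 in replicate 2, both inside the gene body. Neither replicate had a ranked peak from 1000 bp upstream to 200 bp downstream of the outermost of its 2 annotated starts. tpi-1 (WBGene00006601, minus strand, chrII:12036835-12039139), which encodes triosephosphate isomerase, had no ranked peak in replicate 1 or in the comparison of the replicates. Its single peak in replicate 2, with a signal value of 17.8, lay 1403 bp upstream and had a −log10 global IDR of 0.05. Of the 31-base words of pfk-1.1, 100% are unique in the gene and upstream of it, and of those of tpi-1 98.7% in the gene and 91.6% upstream.

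**Figure D3:**
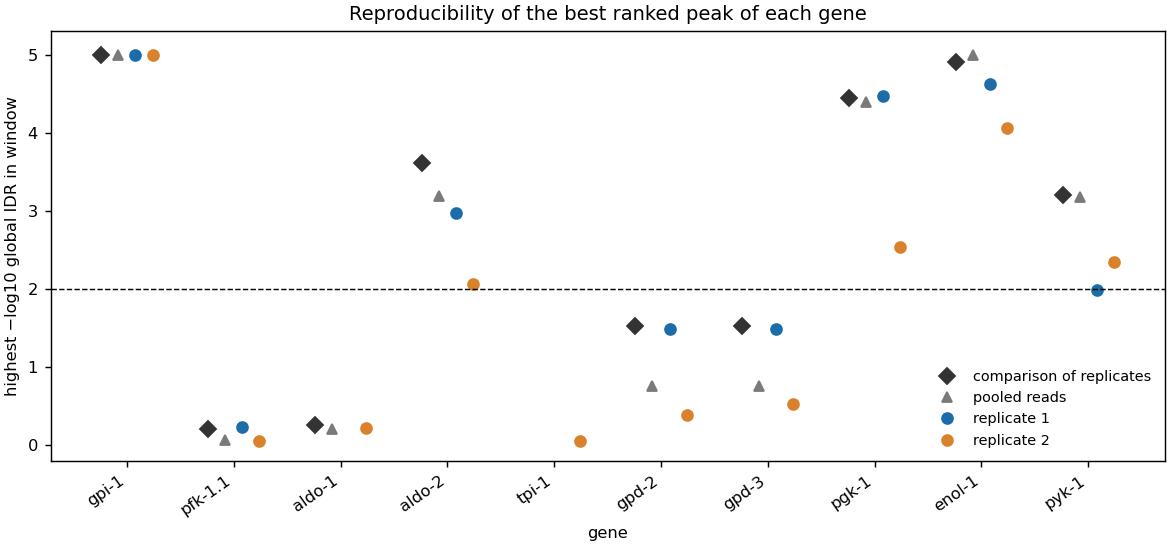
Highest −log10 global IDR among the ranked peaks of each glycolysis gene's window, in the comparison of the replicates (black diamonds), the pooled reads (grey triangles), replicate 1 (blue) and replicate 2 (orange); the dashed line is the threshold of 2. gpi-1 is at 5.00 in all 4, pyk-1 straddles the line with 1.98 and 2.35 in the replicates, and gpd-2 and gpd-3 stay below it at 1.53 or less.

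The replicates differed in how they weighted the sites. The ratio of replicate 2 to replicate 1 was 1.2 at gpi-1, 1.19 at pyk-1, 0.98 at enol-1, 0.74 at aldo-2 and 0.66 at pgk-1, against a median of 1.1 over all 1021 conservative sites (middle 50% from 0.918 to 1.34). The ratios of gpi-1, pyk-1 and enol-1 lay inside that range, and those of aldo-2 and pgk-1 below it, with 9.6% and 4.21% of sites lower still. With 1 library per replicate, this difference between sites was not tested. The summits of the replicates lay 8 bp apart at gpi-1, 23 bp at enol-1, 36 bp at pgk-1, 67 bp at aldo-2 and 76 bp at pyk-1, so they fell closest at the tallest peak and farthest at the lowest.

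**Figure D4:**
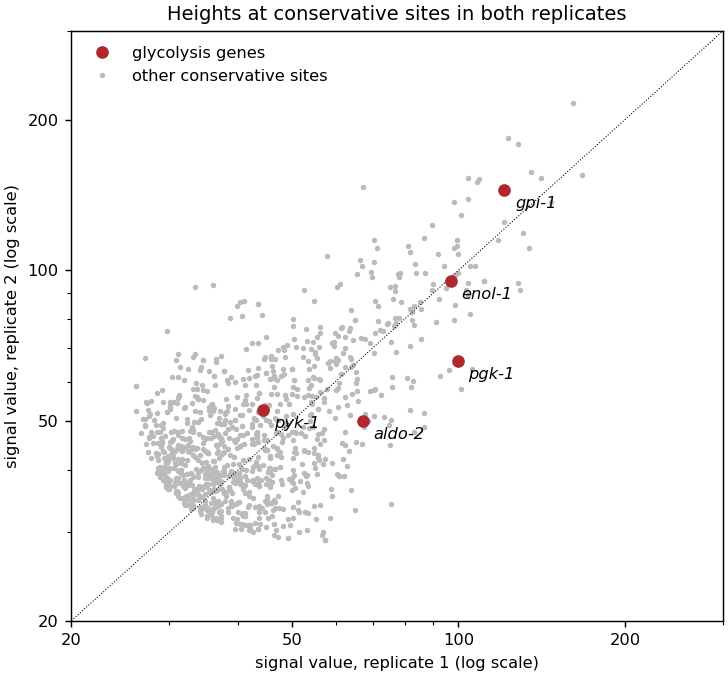
Signal value of each conservative site in replicate 1 (horizontal) and replicate 2 (vertical), both on log scales; red points are the tallest sites of the 5 glycolysis genes, grey points all other sites, and the dotted line marks equal values. gpi-1 and pyk-1 lie above the line, and pgk-1 (99.7 and 65.9) and aldo-2 (67.2 and 50) below it.

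The 3′ ends of these genes were looked at together because of enol-1 and pyk-1. In the ranked comparison, 6 of 10 glycolysis genes (gpi-1, aldo-2, gpd-3, pgk-1, enol-1 and pyk-1) had a summit within 200 bp of the gene end, against 35.5% of all coding genes. Beyond the 2 thresholded ones, the tallest was that of gpi-1, with a signal value of 66.6 at 129 bp past the end, 31.2 in replicate 1 and 28.7 in replicate 2. aldo-2 had one of 45.0 at 57 bp past its end, 24.5 in replicate 1 and 29.9 in replicate 2. Their −log10 global IDR values, 1.60 and 1.31, were the first outside the threshold among the members together with the 1.53 of gpd-2. The end peaks of gpd-3 and pgk-1 were lower, at 32.0 and 22.9. Neither had a summit there in replicate 2's own ranked list, while the comparison of the replicates gives replicate 2 values of 18.3 for gpd-3 and 8.97 for pgk-1. Summits at gene ends were common in the list as a whole, since 363 of 1021 conservative peaks (35.6%) lay within 200 bp of the end of a coding gene, and 221 (21.6%) did so without lying in any coding gene's start window. The conservative end peak of pyk-1 lay in no such start window. That of enol-1 lay in the start window of T21B10.3 and is not among the 221.

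**Figure D5:**
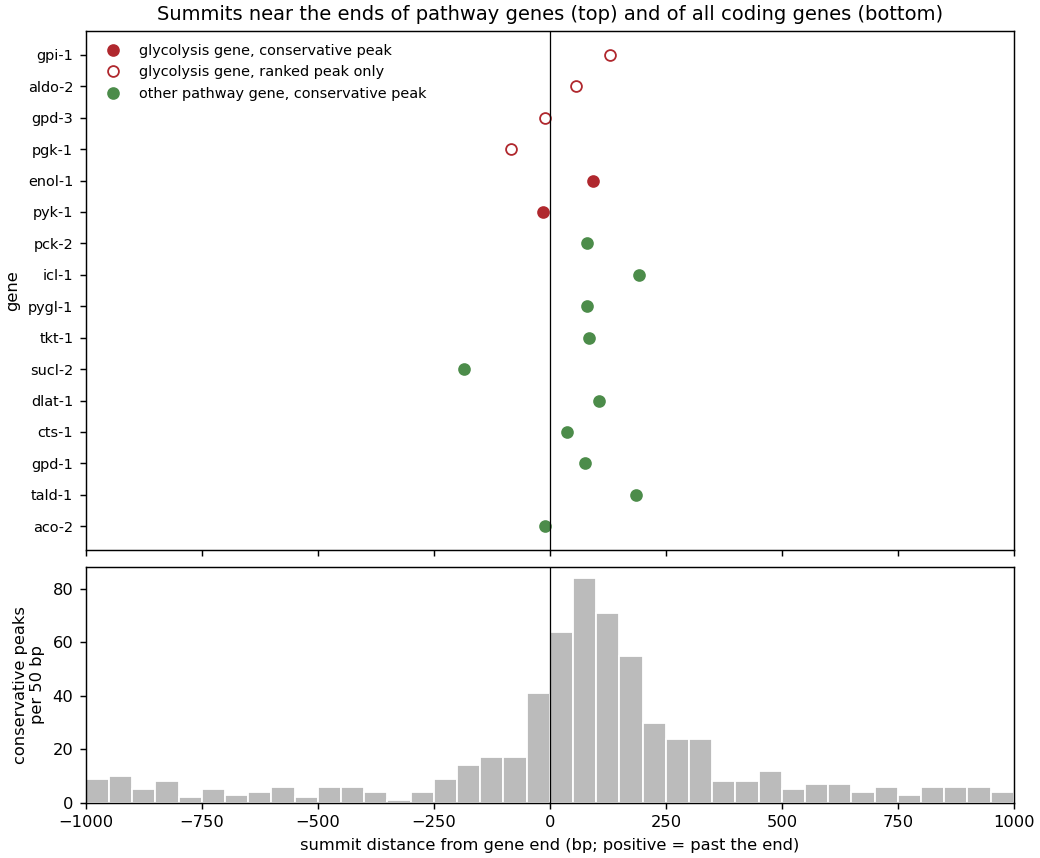
Upper panel, position of the tallest summit within 200 bp of the gene end, in bp past the end, for glycolysis genes (red, open where the peak failed the threshold) and other pathway genes (green). Lower panel, the number of conservative summits per 50 bp around the nearest end of a coding gene; enol-1 at 94 bp sits within the bins just past the end that hold the most summits.

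In base composition the 5 sites fell into opposite parts of the list. Within 50 bp of the summit, GC content was 28.7% at gpi-1 and 32.7% at pyk-1, and 48.5% at enol-1, 50.5% at pgk-1 and 52.5% at aldo-2, against a median of 43.6% over all 1021 conservative peaks. The tallest site of the group was thus among the poorest in GC, as 5.78% of peaks were lower than gpi-1. The dinucleotide CpG occurred 12 times at enol-1, 11 times at aldo-2 and 9 times at pgk-1, and 4 times at gpi-1 and 2 times at pyk-1, against a median of 5. The letters CGCGCC, searched on both strands, were present at the tallest sites of aldo-2, pgk-1 and enol-1 and not at gpi-1 or pyk-1. Of all conservative peaks, 10.4% (106) hold them in the same window. The 1021 peaks include the further pgk-1 peak, which overlaps the first and lacks the letters. Its GC content was 47.5%, and CpG occurred 6 times. In the aldo-2 and enol-1 stretches printed above, the nearest capital letter is 4 bp and 21 bp from the summit.

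The peaks closest in height give a sense of scale. Among conservative peaks at coding gene starts, the next above and below the peak of gpi-1 were those of mog-4 (298.1) and rpa-2 (257.4). Next to enol-1 (186.3) were kel-3 (186.4) and the shared peak of aka-1 and ubc-6 (185.3). Next to pgk-1 (166.9) were the shared peak of atx-2 and ecps-1 (167.3) and that of F42A6.6 (165.1). Next to aldo-2 (105.1) were nhl-2 with tag-340 (105.3) and R119.3 (104.8), and next to pyk-1 (94.84) were F30A10.9 with usp-48 (95.1) and Y46E12BL.2 (94.56).

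Isozymes of the same steps were read in the same way. Of the hexokinase genes hxk-1, hxk-2 and hxk-3, which bring glucose into the pathway, of the second phosphofructokinase gene pfk-1.2 and of the second pyruvate kinase gene pyk-2, 0 of 5 had a conservative peak, against 6.26% of coding genes, a share at which none of 5 is no result about them. Their tallest ranked peaks in the comparison of the replicates ran from 26.2 to 47.2, with a median of 37.8, against 34.8 for all coding genes. For the pyruvate kinase genes the tallest ranked peak was 94.8 at pyk-1 and 37.8 at pyk-2. These are the tallest of 22 and of 5 ranked peaks, and no allowance was made for the length of the window. The pyk-1 peak lies beside the gene end, whereas that of aldo-2 lies at its start. The difference between the pyruvate kinase genes was not tested. For glyceraldehyde 3-phosphate dehydrogenase the thresholded peaks were at gpd-1, on chromosome II, with a signal value of 129 at 224 bp upstream (55.6 in replicate 1 and 73.8 in replicate 2) and of 74.1 at 75 bp past the gene end (39.8 and 44.2). gpd-2, gpd-3 and gpd-4 had none, with a tallest ranked peak of 59.9 for the first pair and 52.8 for gpd-4. The phosphoglycerate mutase gene ipgm-1 had a tallest ranked peak of 57.4 with a −log10 global IDR of 1.63, also outside the threshold.

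The pathways around glycolysis were read from lists of 61 genes that were chosen with earlier results of these data known. In all, 11 of 61 (18%) had a conservative peak, against 6.26% of coding genes, and the median tallest ranked peak was 45.8, against 34.8. In gluconeogenesis 2 of 5 had one, the phosphoenolpyruvate carboxykinase genes pck-1 (69.1) and pck-2. The tallest pck-2 peak, with a signal value of 184, rests on sequence of which 11.7% of 31-base words are unique, while its peaks at 81 bp past the gene end (126) and 21 bp past the start (78.7) are fully unique. Of 8 genes for the fate of pyruvate, 2 had a peak, namely dlat-1, a subunit of pyruvate dehydrogenase (80.5, at 105 bp past the gene end), and pdhk-2, the kinase that inhibits that complex (80.2, at 178 bp upstream). Of 4 pentose phosphate genes, the transketolase gene tkt-1 had one (90.3, at 85 bp past the gene end).

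In glycogen, trehalose and glycerol metabolism, 2 of 11 genes had a conservative peak, against 6.26% of coding genes. Glycogen phosphorylase, pygl-1, had one at 8 bp past its start (123) and one at 79 bp past its end (96.3), and the trehalase gene tre-1 had one at 64 bp upstream (85.0). In the citric acid cycle 3 of 23 had one, against the same 6.26%. They were the citrate synthase gene cts-1 (78.8, at 37 bp past the end), the aconitase gene aco-2 (69.9, at 10 bp before the end) and the succinyl-CoA ligase gene sucl-2 (82.3, at 184 bp before the end). Of the genes for the enzymes that set the level of the sugar that activates phosphofructokinase, 0 of 2 had one. At a share of 6.26%, counts in groups this small are no result about them. Counting summits within 200 bp of a gene end, with the peaks outside the window at tald-1 and icl-1 included, 10 of 61 had one, against 2.26% of coding genes, and 5 of 61 had a summit in the start window, against 2.88%. The letters CGCGCC, searched on both strands, were in 2 of the 18 peaks of these genes, against 10.4% of all conservative peaks. They were upstream of gpd-1 and at the start of pygl-1.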

How the data were processed

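ChIP-seq peak lists on the ce11 assembly were used as the authors deposited them: 4 thresholded and 4 ranked lists, each kind made 4 times, from either replicate alone, from all reads together and from both replicates compared. Which aligner, peak caller and control served is not given in the sources used here. Signal values are the authors' peak heights, deposited without a stated scale, and were not rescaled. The ranked lists hold the deposited −log10 of the global IDR, which was 2 or more for every thresholded peak; the conservative list leaves out 44 of the 1065 peaks that reach 2 in its ranked list. No read counts are given, so the depth is unknown and no counting error could be given. Of 120 columns, 74 were not used.

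Peaks were joined to Ensembl release 115 gene models of the same assembly (Python 3.11.15, numpy 2.4.6, matplotlib 3.10.9), and positions are counted from 1. Heights of the 10 genes per replicate come from each replicate's own lists unless said. Ratios between replicates and the replicate heights of other genes and sites come from columns of the ranked comparison that do not name the replicate. At the 6 conservative peaks of these genes those columns equal the replicates' own lists; elsewhere they can hold a value where a replicate's list has no summit. Uniqueness is the share of 31-base words found once in the genome. The joining step was checked on simulated data, where 600 of 600 peaks placed at known distances were recovered.

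The members and lists were chosen with earlier results of these data known, and no test was run. Genes named are the 10 members, listed pathway genes with a conservative peak, neighbours with a start within 2000 bp of a member's summit, and peaks next in height. Those neighbours include 2 noncoding genes. F01F1.16 starts 1879 bp from the aldo-2 summit, and the snoRNA gene F25H5.9 starts 1146 bp from the pyk-1 summit. Isozymes without a peak, tald-1 and icl-1 and genes that end near a summit were named after their values were seen. One listed name, ugp-1, was not matched.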

Additional observations from a re-analysis of the deposited data

How the results depend on the processing

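The count of 5 glycolysis genes with a conservative peak became 2 when only the sequence upstream of the gene was read, and was 4 or 5 under every other window, overlap, list or replicate choice run. The count of 3 with a summit in the start window became 2 with a reach of 500 bp upstream. It was also 2 with only the upstream side read, and stayed at 3 under the other choices run. The share of coding genes, 6.26%, was 3.83% upstream only, 3.58% with the taller part of the list, and 2.57% to 2.98% with 1 replicate left out. The count of 11 genes in the surrounding pathways was 5 upstream only, 5 with the taller part of the list, and 4 to 6 with 1 replicate left out. The count of 2 glycolysis genes with a summit at the end, an alternative set added after seeing the data, was 1 to 2 with 1 replicate left out: without replicate 2, pyk-1 was lost. The summit of gpi-1, 3 bp upstream of the start, lay downstream of it at 9 bp without replicate 2 and at 1 bp without replicate 1. In the list of replicate 2 alone, of 393 peaks, the sites of aldo-2, pgk-1 and pyk-1 stood above 16.0%, 57.0% and 22.6% of peaks. The shares were 74.9%, 92.8% and 65.3% in the conservative list of 1021 peaks. These lists differ in length and in the peaks they hold, so their shares are not directly comparable. Over the 1021 conservative sites, the mean shares from the replicate columns were 74.4%, 89.6% and 62.2%. The cause of the difference between the lists was not tested. No paired analysis was possible because the study has a single group. With 2 replicates, no control and unknown depth, a gene without a thresholded peak is one where no peak passed the threshold at this depth. Absence of binding there was not shown.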
